A study of Mus musculus with 10 samples.

Results

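The genes described are the 10 named members of the machinery that builds melanosomes and moves them through pigment cells: Mlph, Rab27a, Myo5a, Rab38, Rab32, Lyst, Hps1, Hps3, Hps4 and Hps5. They were taken by symbol from a gene expression table of 42465 gene models, in which each symbol matched 1 model. RNA had been sequenced from Ednrb-/- and wild type (WT) neural tube explants of mouse embryos at embryonic day 9.5, which held neural crest cells, with 5 biological replicates of each genotype. Explants of both genotypes were grown for 4 days in DMEM that held 10% FBS and EDN3 at 20 nM, the peptide that binds the receptor encoded by Ednrb. The labels give neither the strain background nor the deleted exons, and the explants are mixtures of neural tube, neural crest and other cells. The study's title names melanoblast proliferation as its subject, and melanoblasts are the cells from which pigment cells form.

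Melanosomes are lysosome-related organelles, which draw their enzymes from endosomes along routes that all cells share in part. BLOC-2 and BLOC-3 are protein complexes of these routes, BLOC-3 activates the small GTPases Rab32 and Rab38, and Rab32 and Rab38 carry tyrosinase and its relatives to the maturing organelle. A finished melanosome is held at the cell edge by a chain of Rab27a on its membrane, the adaptor melanophilin (Mlph) and the motor myosin Va (Myo5a). Some of the proteins work mainly in pigment or secretory cells (Mlph, Rab27a, Rab38, Rab32), whereas the others are made in most tissues (Myo5a, Lyst, Hps1, Hps3, Hps4, Hps5), and the description below keeps these sets apart.

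The start regions of these genes are shown first, because factors of the MITF and TFE family, which act on pigment and lysosomal genes, bind the letters CACGTG or CATGTG. Each window holds 250 bases before and 50 bases after a RefSeq transcript start on build GRCm38.p6, read 5′ to 3′ on the gene's strand. Of the 10 genes 9 had a window, with 11 windows in all, since Rab27a and Hps1 had 2 starts each. The letters CACGTG, which read the same on both strands, stood in 5 windows of 5 genes, and CATGTG, searched on both strands, in the window of 1 gene, Hps1. Of 32851 windows of the same length in the genome, 7.15% held CACGTG and 14.2% held CATGTG. The 5 windows with a match are printed with the matched letters in capitals. A match of letters is a description of the sequence and not a site shown to be used in these explants.
Mlph, chr1:90914850-90915149, + strand: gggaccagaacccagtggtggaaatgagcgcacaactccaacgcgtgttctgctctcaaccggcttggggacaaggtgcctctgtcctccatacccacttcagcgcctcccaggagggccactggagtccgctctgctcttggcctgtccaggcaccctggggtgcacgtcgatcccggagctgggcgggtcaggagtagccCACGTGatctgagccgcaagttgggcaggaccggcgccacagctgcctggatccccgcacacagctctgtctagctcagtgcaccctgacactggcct
Rab27a, second start, chr9:73063898-73064197, + strand: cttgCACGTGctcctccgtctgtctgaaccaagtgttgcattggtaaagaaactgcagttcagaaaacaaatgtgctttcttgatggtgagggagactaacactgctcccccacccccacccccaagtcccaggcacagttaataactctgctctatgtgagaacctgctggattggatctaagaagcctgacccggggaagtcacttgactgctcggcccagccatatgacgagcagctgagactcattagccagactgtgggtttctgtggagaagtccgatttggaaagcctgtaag
Hps1, second start, chr19:42779929-42780228, - strand: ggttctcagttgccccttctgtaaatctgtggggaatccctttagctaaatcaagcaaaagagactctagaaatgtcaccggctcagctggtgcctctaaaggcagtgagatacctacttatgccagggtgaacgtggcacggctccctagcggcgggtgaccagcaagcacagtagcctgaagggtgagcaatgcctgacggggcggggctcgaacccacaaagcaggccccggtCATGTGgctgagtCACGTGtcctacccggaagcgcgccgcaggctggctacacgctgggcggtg
Hps3, chr3:20035261-20035560, - strand: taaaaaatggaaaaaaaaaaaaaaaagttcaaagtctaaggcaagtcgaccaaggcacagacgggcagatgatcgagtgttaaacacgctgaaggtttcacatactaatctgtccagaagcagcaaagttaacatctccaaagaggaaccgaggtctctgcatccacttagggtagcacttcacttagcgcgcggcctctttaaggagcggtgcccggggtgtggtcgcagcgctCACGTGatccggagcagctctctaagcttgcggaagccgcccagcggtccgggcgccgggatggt
Hps5, chr7:46795832-46796131, - strand: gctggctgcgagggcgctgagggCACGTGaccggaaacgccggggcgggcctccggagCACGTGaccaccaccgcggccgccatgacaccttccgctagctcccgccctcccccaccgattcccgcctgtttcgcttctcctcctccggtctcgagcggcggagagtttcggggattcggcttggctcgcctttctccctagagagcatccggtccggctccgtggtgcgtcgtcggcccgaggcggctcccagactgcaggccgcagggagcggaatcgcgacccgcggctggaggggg
In Mlph the CACGTG letters began 48 bases before the start, in Hps3 15 bases, in Hps1 1 base and in Rab27a 246 bases before it. Hps5 held them at 227 and 192 bases before its start, and the CATGTG of Hps1 began 14 bases before its start. The windows of Myo5a, Lyst, Hps4 and Rab32 and the first windows of Rab27a and Hps1 held neither set of letters. The match was therefore present in genes that differed between the genotypes and in genes that did not pass the test, whose values follow.

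Values are FPKM, fragments scaled to the gene's length and the library's total, and the libraries held between 13022266 and 19532570 reads worked back from them. Ednrb itself had 5.89, 11.7, 7.83, 8.01 and 2.34 FPKM in Ednrb-/- replicates 1 to 5, against 55.6, 55.5, 45.8, 43.8 and 60.7 FPKM in WT replicates 1 to 5, a log2 fold change of -2.92 (SE 0.31; limma adjusted p = 0.00238). The targeted gene was thus lower in every Ednrb-/- library than in any WT library, but it was not at 0. Of 15156 genes tested, limma called 1966 lower and 990 higher in Ednrb-/- explants at an adjusted p under 0.05. Under quantile normalization those counts were 1730 and 1603.

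All 10 genes had at least 0.5 FPKM in at least 5 libraries and were tested. In Ednrb-/- explants Mlph, Rab27a and Rab38 were lower than in WT, 0 of the 10 were higher, and 7 did not pass the test. For comparison, 13.0% of all tested genes were called lower and 6.53% higher. Between 2 and 4 of the 10 were called lower under the other settings tried. The groups did not overlap for 4 genes, Mlph, Rab27a, Rab38 and Hps1, all lower in Ednrb-/- libraries, against 8.44% of tested genes that were lower without overlap. The median log2 fold change of the 10 was -0.38, beside 0.00 for all genes tested. Mlph and Rab27a reached 0.5 FPKM in all WT libraries and in 0 Ednrb-/- libraries, so they entered the test only through the group in which they were high. In whole explants, fewer cells of a type and less RNA per cell cannot be told apart.

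**Figure D1:**
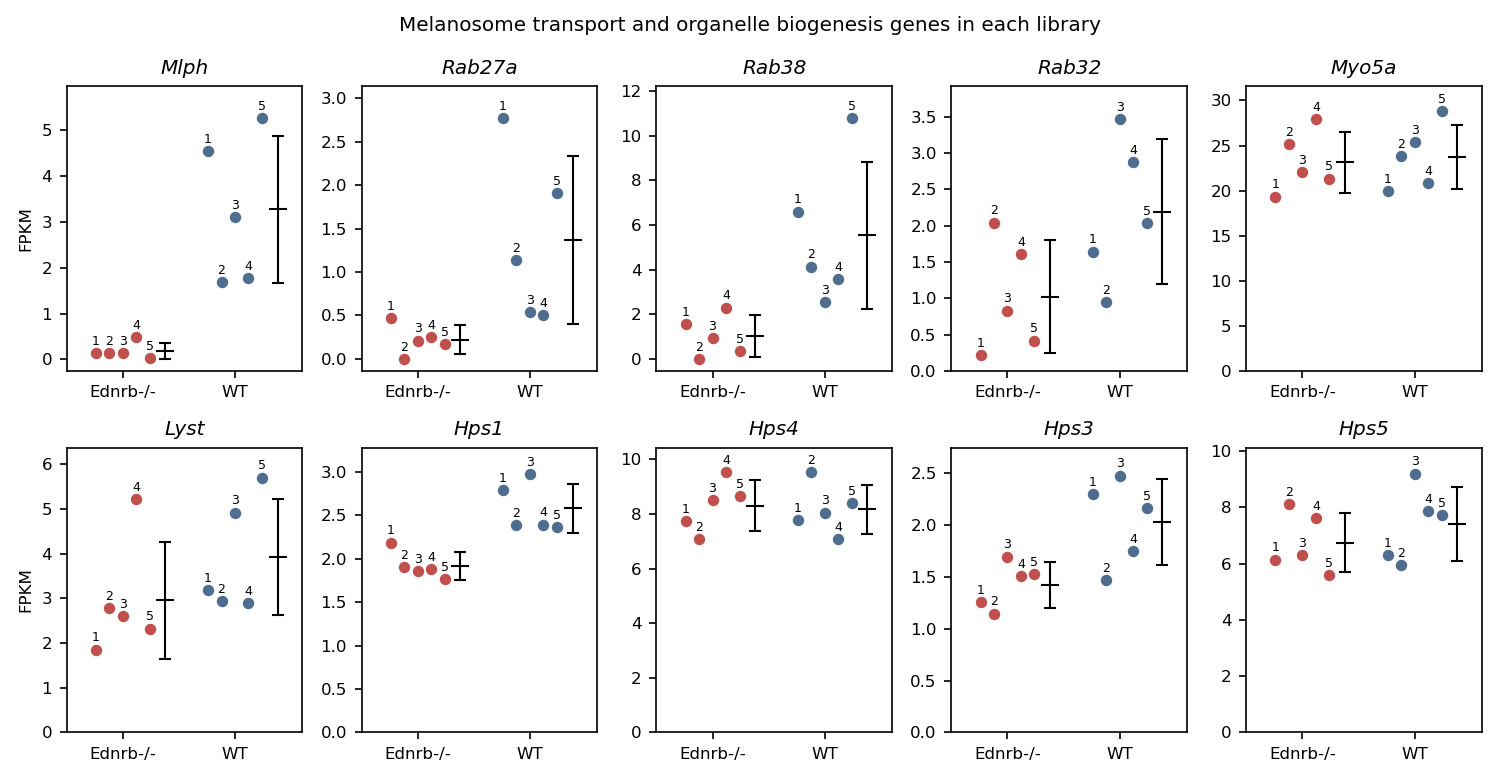
FPKM of the 10 genes in each library, with 1 panel per gene, Ednrb-/- libraries on the left in red and WT libraries on the right in blue, each point numbered by its replicate and each panel with its own FPKM scale. Black bars are the mean ± SD of 5 libraries. For Mlph, Rab27a, Rab38 and Hps1 the Ednrb-/- points lie below the WT points, and for Myo5a and Hps4 the groups lie at the same height.

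The adaptor of the transport chain stood furthest apart. Mlph, whose loss gives the leaden coat in mice, had 0.142, 0.139, 0.132, 0.481 and 0.0236 FPKM in Ednrb-/- replicates 1 to 5, against 4.54, 1.69, 3.10, 1.77 and 5.26 FPKM in WT replicates 1 to 5. The highest Ednrb-/- library, replicate 4, lay below the lowest WT library, replicate 2. The gene averaged 0.183 ± 0.174 FPKM in Ednrb-/- explants and 3.27 ± 1.61 FPKM in WT explants (SD, n = 5 each), so that the WT mean was 17.8 times the Ednrb-/- mean. Without Ednrb-/- replicate 4 the Ednrb-/- mean was 0.109 FPKM and the ratio 30.0. Its log2 fold change was -2.39 (SE 0.31, 95% interval -3.06 to -1.72; limma adjusted p = 0.00276). These levels rest on 2 to 39 reads in Ednrb-/- libraries and 130 to 373 reads in WT libraries. The size of the fold depends on the constant added before taking logs, and was -3.62 with 0.1 FPKM added and -4.44 when recovered reads were fitted with limma voom, with a call under each. The table places Mlph at chr1:96002734-96038398, + strand, in C57BL/6NJ coordinates.

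Rab27a, the GTPase that marks the melanosome for the chain and is lost in ashen mice, was the weakest of the 3 calls. Its values were 0.469, 0, 0.211, 0.253 and 0.167 FPKM in Ednrb-/- replicates 1 to 5, against 2.77, 1.13, 0.541, 0.504 and 1.91 FPKM in WT replicates 1 to 5. Replicate 1 of Ednrb-/- came close to replicate 4 of WT, so the groups did not overlap but nearly met. Ednrb-/- replicate 2 had 0 reads, which allows up to 0.0594 FPKM (3 reads, counting error only). Rab27a averaged 0.220 ± 0.169 FPKM in Ednrb-/- explants and 1.37 ± 0.967 FPKM in WT explants (SD, n = 5 each). Its log2 fold change was -1.26 (SE 0.35, 95% interval -2.02 to -0.49; limma adjusted p = 0.0270). The call was lost with no filter on low values (limma adjusted p = 0.0514), under quantile normalization (0.104) and with weights per library (0.0617). It was also lost without Ednrb-/- replicate 2 (0.0563), 3 (0.0524) or 5 (0.0578) and without WT replicate 1 (0.0506) or 5 (0.0758). With 0.1 FPKM added before taking logs its log2 fold change was -2.14, and by limma voom -2.86, both past the threshold. It lies at chr9:75177052-75232000, + strand, in the table's coordinates.

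Myo5a, the motor that completes the chain and is lost in dilute mice, had 19.3, 25.1, 22.0, 27.9 and 21.3 FPKM in Ednrb-/- replicates 1 to 5, against 19.9, 23.8, 25.4, 20.8 and 28.8 FPKM in WT replicates 1 to 5. The groups overlapped along most of their range. Its mean was 23.1 ± 3.39 FPKM in Ednrb-/- explants and 23.8 ± 3.58 FPKM in WT explants (SD, n = 5 each), the highest level per length of the 10 genes in both genotypes. The log2 fold change was -0.04 with a 95% interval of -0.31 to 0.24 (limma adjusted p = 0.873). At 4850 to 6727 reads in Ednrb-/- libraries and 4861 to 5909 reads in WT libraries, its level was the best measured of the set. Myosin Va also carries cargo in neurons and other cells. Myo5a lies at chr9:77371278-77531506, + strand, in the table's coordinates.

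**Figure D2:**
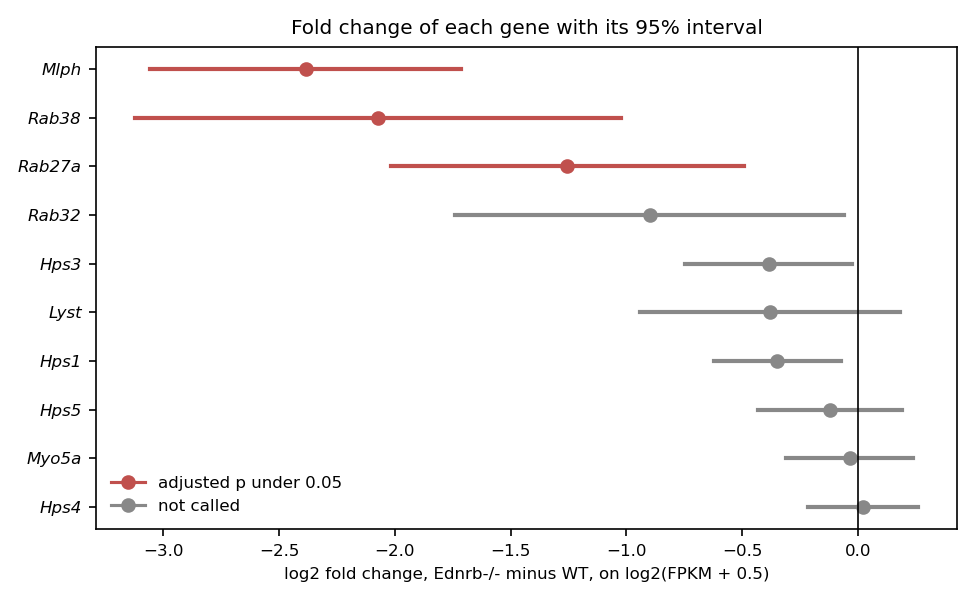
Log2 fold change (Ednrb-/- minus WT, on log2(FPKM + 0.5)) of each of the 10 genes as a point with its 95% interval, ordered by size, with calls at an adjusted p under 0.05 in red and the other genes in grey. Mlph at -2.39, Rab38 at -2.07 and Rab27a at -1.26 are called lower, and Myo5a at -0.04 and Hps4 at 0.02 lie next to zero.

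Within a library, the level of 1 link of the chain can be set against that of another. The difference of log2(FPKM + 0.5) between Mlph and Myo5a averaged -5.13 ± 0.23 in Ednrb-/- libraries and -2.78 ± 0.61 in WT libraries (SD, n = 5 each), a gap of -2.35. By an exact two-sided permutation over libraries this gap had p = 0.00794, the smallest p that 5 against 5 libraries can give, and 0.0238 after adjustment over the 6 pairs compared. Mlph minus Rab27a averaged -0.08 ± 0.43 in Ednrb-/- libraries and 1.05 ± 0.54 in WT libraries (exact permutation p = 0.00794, adjusted 0.0238). Both genes lay below the 0.5 FPKM added in every Ednrb-/- library (at most 0.481 and 0.469 FPKM), which holds their difference near 0 there. The gap of this pair therefore largely restates the WT levels, and cannot show whether the adaptor fell more than its GTPase. For Rab27a minus Myo5a the means were -5.06 ± 0.48 in Ednrb-/- libraries and -3.84 ± 0.78 in WT libraries (exact permutation p = 0.0238, adjusted 0.0476). This last pair did not pass without Ednrb-/- replicate 2 (adjusted exact permutation p = 0.0714), 3, 4 or 5 (0.0952 each), nor without WT replicate 1 (0.0635), 2 (0.0595) or 5 (0.0635). With 0.1 FPKM added before taking logs, the Mlph and Rab27a pair had an adjusted p of 0.0833 and the Rab27a and Myo5a pair an adjusted p of 0.0714, by the same exact permutation. The gap between Mlph and Myo5a passed under each setting tried that gave it a value. Myo5a itself had a log2 fold change of -0.04, so the 2 gaps with Myo5a largely restate the folds of Mlph and Rab27a. They are no separate support for those folds, and the pairs were chosen with earlier results of these data known.

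Of the cargo-delivery GTPases, Rab38, which is mutated in chocolate mice, was lower in Ednrb-/- explants. It had 1.55, 0, 0.928, 2.30 and 0.360 FPKM in Ednrb-/- replicates 1 to 5, against 6.60, 4.13, 2.55, 3.57 and 10.8 FPKM in WT replicates 1 to 5. All Ednrb-/- libraries lay below all WT libraries, with Ednrb-/- replicate 4 and WT replicate 3 closest to each other. Rab38 averaged 1.03 ± 0.921 FPKM in Ednrb-/- explants and 5.53 ± 3.29 FPKM in WT explants (SD, n = 5 each), and its log2 fold change was -2.07 (SE 0.48, 95% interval -3.12 to -1.02; limma adjusted p = 0.0120). It was called lower under every setting and with every library left out in turn, with adjusted p of at most 0.0333 by limma. Ednrb-/- replicate 2 had 0 reads of Rab38, which allows up to 0.157 FPKM, and the other Ednrb-/- libraries had 9 to 55 reads, against 59 to 214 reads in WT libraries. Rab38 lies at chr7:94341182-94403204, + strand, in the table's coordinates.

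Rab32, the close relative that shares the transport of melanosome enzymes with Rab38, did not pass the test. Its values were 0.216, 2.04, 0.829, 1.60 and 0.418 FPKM in Ednrb-/- replicates 1 to 5, against 1.64, 0.950, 3.47, 2.87 and 2.04 FPKM in WT replicates 1 to 5. The groups overlapped, with Ednrb-/- replicate 2 above WT replicates 1 and 2 and level with WT replicate 5. It averaged 1.02 ± 0.778 FPKM in Ednrb-/- explants and 2.19 ± 0.995 FPKM in WT explants (SD, n = 5 each), with a log2 fold change of -0.90 (95% interval -1.74 to -0.06; limma adjusted p = 0.125). With weights per library the log2 fold change was -1.30 and passed (limma adjusted p = 0.0104). The gap between Rab38 and Rab32, -1.17 on the log2 scale, did not pass (exact permutation p = 0.190, adjusted 0.190). In Ednrb-/- explants the means of the paralogues were alike, and in WT explants Rab38 had the higher mean, with overlapping libraries. Rab32 rests on 9 to 56 reads in Ednrb-/- libraries and 31 to 115 reads in WT libraries, and lies at chr10:8090044-8103230, - strand, in the table's coordinates.

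The 3 calls were all among the 4 genes of pigment or secretory cells, but Mlph and Rab27a passed the filter only through WT libraries, so this count is a description. With no filter on low values Rab27a was not called, and with a variance prior that is the same at all levels Hps1, a widely expressed gene, was. The median log2 fold change of the 4 was -1.66. In the fit reported here none of the 6 widely expressed genes was called by limma, beside 19.5% of all tested genes called in either direction. With so few genes this count does not set them apart from all tested genes. The median of the 6 was -0.23, and 2 of them, Hps1 and Hps3, had an unadjusted p under 0.05. Over all 10 genes, 6 were lower and 0 higher at an unadjusted p under 0.05, beside 18.9% and 14.2% of all genes tested. The sets were divided by where the genes are known to act, but with earlier results of these data known. The difference between them as sets was not tested.

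Both subunits of BLOC-3 were measured well above the filter. Hps1, the gene of pale ear mice, had 2.18, 1.90, 1.86, 1.88 and 1.77 FPKM in Ednrb-/- replicates 1 to 5, against 2.79, 2.38, 2.98, 2.39 and 2.37 FPKM in WT replicates 1 to 5. Each Ednrb-/- library lay below each WT library. The mean was 1.92 ± 0.157 FPKM in Ednrb-/- explants and 2.58 ± 0.283 FPKM in WT explants (SD, n = 5 each), which gives a log2 fold change of -0.35 (95% interval -0.62 to -0.07; limma adjusted p = 0.0727). When limma's variance prior was the same at all levels, it gave an adjusted p of 0.0274. Hps4, its partner and the gene of light ear mice, had 7.74, 7.08, 8.51, 9.54 and 8.65 FPKM in Ednrb-/- replicates 1 to 5, against 7.78, 9.54, 8.05, 7.08 and 8.39 FPKM in WT replicates 1 to 5. Its mean was 8.30 ± 0.937 FPKM in Ednrb-/- explants and 8.17 ± 0.908 FPKM in WT explants. These values overlapped throughout, and the log2 fold change was 0.02 (95% interval -0.22 to 0.26; limma adjusted p = 0.912). The gap between Hps1 and Hps4 was -0.37 on the log2 scale (exact permutation p = 0.0397, adjusted 0.0595), and passed without Ednrb-/- replicate 1 (0.0476). In the table's coordinates Hps1 lies at chr19:43183521-43209225, - strand, and Hps4 at chr5:119413027-119455239, + strand.

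Of BLOC-2, Hps3, the gene of cocoa mice, had 1.25, 1.14, 1.70, 1.504 and 1.52 FPKM in Ednrb-/- replicates 1 to 5, against 2.30, 1.47, 2.48, 1.75 and 2.16 FPKM in WT replicates 1 to 5. Only WT replicate 2 lay within the range of the Ednrb-/- libraries. Hps3 averaged 1.42 ± 0.222 FPKM in Ednrb-/- explants and 2.03 ± 0.413 FPKM in WT explants. Its log2 fold change was -0.39 (95% interval -0.74 to -0.03; limma adjusted p = 0.123). Hps3 shares 13983 bases with Cp on the opposite strand, and Cp averaged 1.09 FPKM in Ednrb-/- explants and 2.89 FPKM in WT explants. Use of strand in counting is not stated in the sources used here, so reads of Hps3 and Cp cannot be told apart in those bases. Hps5, mutated in ruby-eye 2 mice, had 6.14, 8.11, 6.29, 7.60 and 5.59 FPKM in Ednrb-/- replicates 1 to 5, against 6.29, 5.94, 9.19, 7.86 and 7.71 FPKM in WT replicates 1 to 5. The groups overlapped, with means of 6.75 ± 1.06 FPKM in Ednrb-/- explants and 7.40 ± 1.31 FPKM in WT explants, and its log2 fold change was -0.12 (95% interval -0.43 to 0.19; limma adjusted p = 0.599). The gap between Hps3 and Hps5 was -0.27 (exact permutation p = 0.190, adjusted 0.190). In the table's coordinates Hps3 lies at chr3:18288466-18335785, - strand, and Hps5 at chr7:49425358-49463495, - strand.

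Lyst, the large BEACH protein that sets the size of lysosomes and melanosomes and is lost in beige mice, had 1.85, 2.78, 2.60, 5.22 and 2.32 FPKM in Ednrb-/- replicates 1 to 5, against 3.18, 2.93, 4.91, 2.89 and 5.70 FPKM in WT replicates 1 to 5. Apart from replicate 4, the Ednrb-/- libraries lay below the WT libraries. Its mean was 2.95 ± 1.31 FPKM in Ednrb-/- explants and 3.92 ± 1.30 FPKM in WT explants (SD, n = 5 each), and its log2 fold change was -0.38 (95% interval -0.94 to 0.18; limma adjusted p = 0.333). Lyst lies at chr13:11103292-11312300, + strand, in the table's coordinates.

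Ranked by level per length, the order in WT explants was Myo5a, Hps4, Hps5, Rab38, Lyst, Mlph, Hps1, Rab32, Hps3 and Rab27a. Only the step between Myo5a and Hps4 was free of overlap between neighbours there. In Ednrb-/- explants Mlph took place 10 of 10, where it had place 6 in WT explants, and Rab38 took place 7, where it had place 4 in WT. Myo5a, Hps4 and Hps5 held the first places in both genotypes.

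The levels of the 4 genes of pigment or secretory cells also varied among WT libraries. In WT explants Rab27a ran from 2.77 FPKM in replicate 1 through replicates 5, 2 and 3 to 0.504 FPKM in replicate 4. The summed FPKM of 13 melanocyte lineage markers followed the same order of WT libraries, between 40.3 and 159.6. Mlph and Rab38 were highest in WT replicates 5 and 1 as well. Rab32 had another order, with WT replicates 3 and 4 highest and 2 lowest, which was the order of the summed FPKM of 8 smooth muscle and mesenchyme markers. In Ednrb-/- libraries neither match was present. There Rab27a had 0 reads in replicate 2 and was highest in replicate 1. The melanocyte lineage sums of replicates 2 and 1 were nearly equal, at 16.88 and 16.84 FPKM, and the highest of the group. Kit, which was not called, made up 7.24 FPKM of the sum in replicate 2. Rab32 was highest in replicate 2 and lowest in replicate 1, while the smooth muscle and mesenchyme sum was highest in replicates 4 and 1. Mlph, with replicates in the order 4, 1, 2, 3 and 5, followed the smooth muscle and mesenchyme sum among Ednrb-/- libraries. These orders over 5 libraries are descriptions.

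**Figure D3:**
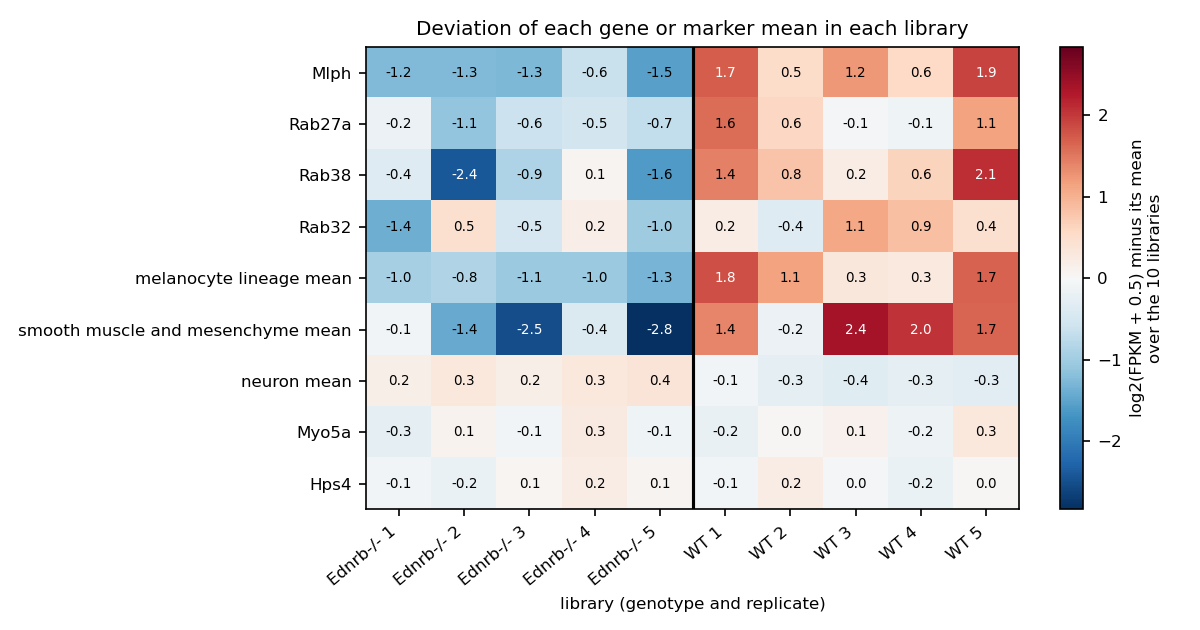
Deviation of log2(FPKM + 0.5) from its mean over the 10 libraries for Mlph, Rab27a, Rab38, Rab32, Myo5a and Hps4 and for the mean of the tested markers of 3 cell types, with Ednrb-/- libraries left of the black line and WT libraries right of it (red above and blue below the mean). Rab27a is highest in WT replicates 1 and 5, as is the melanocyte mean, while Rab32 is highest in WT replicates 3 and 4, as is the smooth muscle and mesenchyme mean.

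Markers of several cell types moved with genotype beside these genes. Of 13 melanocyte lineage markers 7 were tested, and limma called 5 lower (Pmel, Dct, Mlana, Mitf and Sox10) and 0 higher. Their sum was 12.1 to 16.9 FPKM in Ednrb-/- libraries and 40.3 to 159.6 FPKM in WT libraries. Tyr, Tyrp1, Gpr143, Slc45a2, Oca2 and Trpm1 were too low to be tested. The 8 smooth muscle and mesenchyme markers fell in the fit reported here (sum 45.7 to 322 FPKM in Ednrb-/- libraries and 376 to 2840.4 FPKM in WT libraries), as did the 3 tested of 6 epithelial markers (1.38 to 16.2 FPKM in Ednrb-/- and 21.7 to 65.3 FPKM in WT). The epithelial markers tested were Krt8, Krt18 and Krt19, and Epcam, Cdh1 and Esrp1 were too low to be tested. The call of Pdgfrb was lost in 10 of the 20 other settings and that of Col1a2 in 7. Of 7 neuronal markers 6 rose (1384 to 1609 FPKM in Ednrb-/- and 857 to 1149 FPKM in WT). Of 6 glial markers 4 fell and 1, Fabp7, rose, with the call of Fabp7 lost in 9 of the other settings and overlapping sums of 379 to 518 FPKM in Ednrb-/- libraries and 199.9 to 442 FPKM in WT libraries. Kdr was the 1 endothelial marker tested and fell. Macrophage markers, of a cell type that also uses Rab27a and Rab32, summed to 0.174 to 2.02 FPKM in Ednrb-/- libraries and 0.847 to 2.49 FPKM in WT libraries, with Tyrobp at 0 throughout. Platelet markers summed to 5.30 to 9.42 FPKM in Ednrb-/- libraries and 5.29 to 8.54 FPKM in WT libraries, with Pf4 at 0 throughout. Each of these sums was mostly 1 gene, and neither gene was called. Cd68 averaged 1.21 FPKM in Ednrb-/- explants and 1.57 FPKM in WT explants within the macrophage sum. Gp1bb averaged 6.74 FPKM in Ednrb-/- explants and 6.02 FPKM in WT explants within the platelet sum. The part of these cell types in the values of Mlph, Rab27a, Rab38 and Rab32 was not tested.

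The genes whose profile over the 10 libraries lay nearest to Mlph, Rab27a, Rab38 and Rab32 were found by the root mean square difference of their centred log2 values. For Mlph they included Mcoln3 (0.247), which encodes a lysosomal cation channel, Mitf (0.344), the regulator of the melanocyte lineage, Anxa11 (0.364) and Synpo (0.365). The median difference from Mlph over all tested genes was 1.31. For Rab38 they were Hfe (0.431), Col2a1 (0.463), Mitf (0.466), Fibin (0.482) and Trim63 (0.499), against a median of 1.32. Mitf was thus among the 5 nearest to both Mlph and Rab38.

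For Rab27a the nearest profiles were those of Matn2 (0.271), Insc (0.325), Egfl8 (0.339), Gjc3 (0.365) and Cyp2j6 (0.366), against a median of 0.860. For Rab32 they were Fas (0.214), Tspan2 (0.226), Zak (0.269), Ifit2 (0.287) and Bmp1 (0.300), against a median of 0.810. None of the 5 nearest to Rab27a and none of the 5 nearest to Rab32 is among the melanocyte lineage markers. A difference in fold size alone adds to this distance. The called melanocyte markers had log2 fold changes from -1.90 (Mitf) to -4.30 (Pmel), against -1.26 for Rab27a and -0.90 for Rab32. Markers too low to be tested were not compared. The absence therefore cannot show that the profiles are unrelated.

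The wider pathway was described with 59 further genes in 9 groups, of which 50 were tested. Limma called 8 of them (16%) lower and 4 (8%) higher, near the 13.0% and 6.53% of all tested genes, so the counts do not set the pathway apart, and the single genes below are given as values. Their median log2 fold change was 0.01. Of the 8 falls, 4 lay among the 7 tested relatives and effectors of Rab27 and myosin V, of which Rab27b, Exph5, Sytl1, Sytl4 and Unc13d were too low to be tested. Sytl2, which links Rab27a to membranes, had 1.89, 0.903, 0.856, 2.84 and 0.307 FPKM in Ednrb-/- replicates 1 to 5, against 11.1, 2.96, 13.4, 10.1 and 12.7 FPKM in WT replicates 1 to 5 (log2 fold change -2.53, SE 0.44; limma adjusted p = 0.00416). Its groups did not overlap, and WT replicate 2 lay close to the highest Ednrb-/- library. Sytl5, a relative of Sytl2, averaged 0.271 ± 0.313 FPKM in Ednrb-/- explants and 2.43 ± 1.42 FPKM in WT explants (log2 fold change -1.85; limma adjusted p = 0.0103). Myo5b, the myosin V of recycling endosomes, averaged 0.525 ± 0.263 FPKM in Ednrb-/- explants and 1.80 ± 0.435 FPKM in WT explants (-1.18; limma adjusted p = 0.00605). Thus this myosin V gene fell while Myo5a did not pass the test. Mreg, whose loss in mice restores the coat of dilute animals, averaged 1.04 ± 0.414 FPKM in Ednrb-/- explants and 2.00 ± 0.294 FPKM in WT explants (-0.73; limma adjusted p = 0.0265), a call that was lost in 7 of the 20 other settings.

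**Figure D4:**
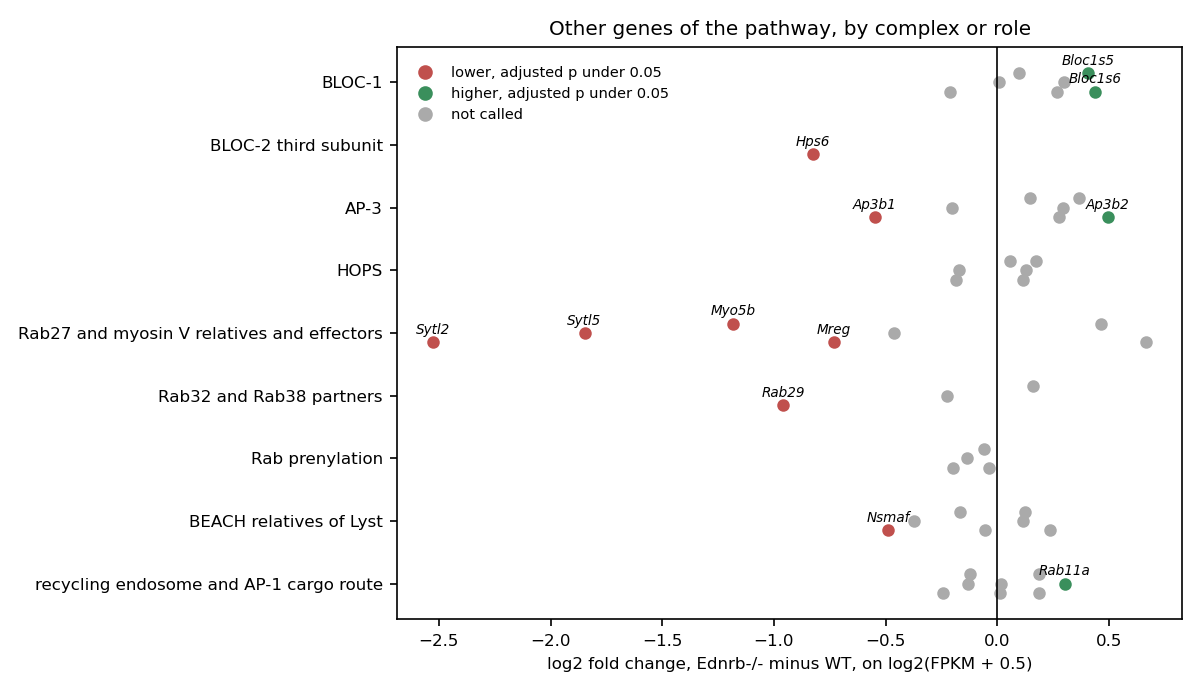
Log2 fold change (Ednrb-/- minus WT, on log2(FPKM + 0.5)) of the 50 tested pathway genes, 1 point each, grouped by complex or role from top to bottom, with calls at an adjusted p under 0.05 in red (lower) and green (higher). The falls below -1 are Sytl2, Sytl5 and Myo5b, and the HOPS and Rab prenylation groups hold no call.

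Rab29, a close relative of Rab32 and Rab38, had 1.45, 1.62, 1.23, 2.68 and 1.88 FPKM in Ednrb-/- replicates 1 to 5, against 4.30, 2.60, 4.12, 4.04 and 4.29 FPKM in WT replicates 1 to 5 (log2 fold change -0.96, SE 0.19; limma adjusted p = 0.00664). Only WT replicate 2 lay within the Ednrb-/- range. Ankrd27 and Sgsm2, the other partners of Rab32 and Rab38 listed, were not called.

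Hps6, the remaining subunit of BLOC-2 and the gene of ruby-eye mice, was lower, unlike Hps3 and Hps5, which did not pass. It had 0.693, 0.883, 1.30, 1.19 and 0.458 FPKM in Ednrb-/- replicates 1 to 5, against 1.87, 1.58, 2.43, 1.86 and 1.95 FPKM in WT replicates 1 to 5 (log2 fold change -0.83, SE 0.20; limma adjusted p = 0.0153). Its groups did not overlap, and it was called under each of the 20 other settings. The differences between Hps6 and the other subunits were not tested.

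Of the AP-3 adaptor, which sorts tyrosinase from endosomes, 7 subunits were tested, with 1 call in each direction. Ap3b1, the broadly made beta subunit that is mutated in pearl mice, had 11.5, 15.9, 11.3, 12.5 and 12.8 FPKM in Ednrb-/- replicates 1 to 5, against 18.4, 16.0, 19.8, 19.8 and 20.5 FPKM in WT replicates 1 to 5 (log2 fold change -0.55, SE 0.11; limma adjusted p = 0.00623). Ap3b2, the neuronal beta subunit, had 15.8, 23.6, 19.5, 18.7 and 20.6 FPKM in Ednrb-/- replicates 1 to 5, against 14.5, 14.8, 14.3, 11.8 and 13.2 FPKM in WT replicates 1 to 5 (log2 fold change 0.50, SE 0.11; limma adjusted p = 0.00979). The beta subunits thus moved in opposite directions, each without overlap of the groups, beside the rise of 6 of 7 neuronal markers given above, whose part in this was not tested. Both calls held under each of the 20 other settings.

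Of BLOC-1, 7 subunits were tested and 2 rose. Bloc1s6, the pallid gene, averaged 19.6 ± 3.16 FPKM in Ednrb-/- explants and 14.3 ± 1.27 FPKM in WT explants (log2 fold change 0.44; limma adjusted p = 0.0194), a call lost with a replicate block (limma adjusted p = 0.0724). Bloc1s5, the muted gene, averaged 17.0 ± 2.21 FPKM in Ednrb-/- explants and 12.7 ± 2.07 FPKM in WT explants (0.40; limma adjusted p = 0.0466), a call lost in 10 of the 20 other settings. Neither gene's direction is that of Mlph or Rab38. The 6 tested HOPS subunits, which tether late endosomes, and the 4 tested genes of Rab prenylation, which attach Rab27a and other Rabs to membranes, held 0 calls.

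Among 7 tested BEACH relatives of Lyst, Nsmaf fell (4.70 ± 0.579 FPKM in Ednrb-/- explants and 6.82 ± 1.08 FPKM in WT explants; log2 fold change -0.49; limma adjusted p = 0.0209), and its call was lost in 6 of the 20 other settings. Among 8 tested genes of recycling endosomes and AP-1, Rab11a rose (54.1 ± 6.21 FPKM in Ednrb-/- explants and 43.6 ± 2.75 FPKM in WT explants; 0.30; limma adjusted p = 0.0363), and its call was lost in 11 of them.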

How the data were processed

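The values are FPKM, as deposited by the authors in 1 table with 1 column per library. Per the submitters' processing notes the tools were fastp, HISAT2 2.0.5 and featureCounts 1.5.0-p3 with build mm10. The gene identifiers and coordinates are those of the C57BL/6NJ strain annotation and were not converted. RefSeq windows are on GRCm38.p6. The sources used here give neither the filters nor whether strand was used.

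FPKM times gene length came to whole steps for 100% of values in each library (tolerance 0.01 read), which gave the reads behind each value.

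The test was limma 3.58.1 in R 4.3.3 on log2(FPKM + 0.5) with a variance prior that follows the mean, all 10 libraries, no covariate, two-sided, adjusted by Benjamini-Hochberg over the 15156 genes with at least 0.5 FPKM in at least 5 libraries, with calls at an adjusted p under 0.05. Each log2 fold change is Ednrb-/- minus WT and understates low genes. "Fell" and "rose" are used of called genes. Pairs of genes were compared by exact permutation of within-library differences over libraries. The fit was tested on simulated data.

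The genes, lists and pairs were chosen with earlier results of these data known. Named are the 10 genes, the called pathway genes among the 4 with the lowest p in each list, markers, the 5 nearest profiles of 4 genes, and Ednrb; some genes that this takes are not reported here. Other settings tried were the pseudocount, the filter, TPM scaling, quantile normalization, no trend, library weights, voom on recovered reads, a replicate block and leaving out each library.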

Additional observations from a re-analysis of the deposited data

Results flagged for a closer look

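In each of the 10 genes and both genotypes, the highest and lowest of 5 libraries were set against the others, and 2 of these 20 groups held a library whose gap to the next took up more of the range than Dixon's 95% value allows. Chance gives about 1 in 20. Both were the highest value of Ednrb-/- replicate 4. Mlph had 0.481 FPKM there, with a gap of 0.741 of the range, and the other Ednrb-/- libraries had 0.0236 to 0.142 FPKM. Lyst had 5.22 FPKM there, with a gap of 0.726 of the range, and the other Ednrb-/- libraries had 1.85 to 2.78 FPKM. The same library had the highest sum of epithelial markers (16.2 FPKM) and of smooth muscle and mesenchyme markers (322 FPKM) among Ednrb-/- libraries. In that epithelial sum Krt8, Krt18 and Krt19 had 6.82, 4.17 and 4.80 FPKM, while Epcam had 0.0603, Cdh1 0.336 and Esrp1 0 FPKM. The part of any cell type in the values of Mlph and Lyst was not tested.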

How the results depend on the processing

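Rab38 and Mlph were called lower under every setting run, and Rab27a was not tested at a filter of 1 FPKM. Leaving out each library moved the log2 fold change of Myo5a between -0.11 and 0.0352, with a positive sign without Ednrb-/- replicate 1 (0.0248) and WT replicate 5 (0.0352), and that of Hps4 between -0.027 and 0.0767, with a negative sign without replicate 4 of Ednrb-/- (-0.027) or of WT (-0.0249). Neither was called. With 0.1 FPKM added, Mlph minus Rab27a was -1.48 and Rab27a minus Myo5a -2.10, neither passing. Leaving out a library moved Rab27a minus Myo5a between -1.42 and -0.92 (exact permutation, adjusted p 0.0318 to 0.0952) and Hps1 minus Hps4 between -0.45 and -0.32 (0.0476 to 0.107). The genes called over the whole table numbered 2956, 1877 with a replicate block, and 1945 to 3276 with a library left out (1945, 1960 and 1955 without WT replicates 3, 4 and 5). Those higher numbered 990, against 659 with no filter, 1603 under quantile normalization, 1684 with library weights, 419 with the replicate block and 513 to 1150 with a library left out. Pathway genes called higher numbered 4, against 2 with no filter, no trend or the replicate block, 7 under quantile normalization or library weights, and 2 to 6 with a library left out. The causes were not tested.

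Same-numbered libraries of the genotypes had correlations of their deviations between -0.163 and 0.153, and no Ednrb-/- library correlated best with its own number, so the numbers were not taken as pairs. With the replicate block Mlph (limma adjusted p = 0.0126), Rab38 (0.0311) and Rab27a (0.0395) were still called lower. Depth limits the levels of Mlph, Rab27a, Rab38 and Rab32 in Ednrb-/- libraries, which rest on 0 to 56 reads, and p-values measure the spread between these explants only.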
